A study of Homo sapiens with 2 samples.

Results

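The expression of 7 genes of the aryl hydrocarbon receptor (AHR) pathway was examined in the HEL cell line, a human erythroleukemia line, after treatment with L1. L1 is a 3,3′-diindolylmethane (DIM) derivative. DIM, which forms in the body from an indole released by cruciferous vegetables, is known to bind AHR. The genes were CYP1A1, CYP1B1, AHRR, TIPARP, AHR, ARNT and EREG, which are 7 of the 61806 genes in the deposited count table. They were chosen by the read counts of CYP1A1 in these same libraries, so the difference between the conditions is given here as a description. The HEL cells (genotype WT in the labels) received L1 at 1 µM or the vehicle, 0.5% DMSO, and both cultures were harvested at 24 h. Each condition had 1 library made from bead-captured mRNA, so the spread between cultures is unknown and the text holds neither tests nor p-values. All cells came from 1 line, and fewer cells that express a gene cannot be told apart from less RNA per cell.

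The DMSO library held 32556872 counts and the L1 library 27135647. The 12 markers of erythroid and megakaryocytic cells that were looked up all had at least 10 counts, and their summed level was 3979 CPM (counts scaled to library size) in DMSO and 4271 CPM in L1. Within this sum, the globin genes HBG1, HBA1 and HBA2 passed 2-fold upward in L1, with log2 ratios (prior count 2) of 1.78, 1.15 and 1.16, and TFRC, the transferrin receptor, passed it downward at -1.25. The other 8 markers lay within 2-fold. Among them was HBG2 at 0.22, with 20283 counts with DMSO and 20372 with L1, more than HBG1 in both libraries (5620 and 16681). The globin genes are near-identical copies (HBG1 and HBG2, HBA1 and HBA2), so the split of reads between them is uncertain. Over the 18123 genes with at least 10 counts in either library, 7.12% lay 2-fold or more higher in L1 and 4.83% lower. The markers of other cell types were low. Hepatocyte markers summed to 3.34 CPM in DMSO and 4.71 CPM in L1. Nearly all of this came from TF, with 98 and 120 counts, and ALB was at 0 counts in both libraries. Epithelial markers summed to 24.6 and 22.3 CPM, nearly all from KRT8 and KRT18, with EPCAM, KRT5 and KRT19 at 0. Fibroblast markers summed to 1.06 and 1.23 CPM and lymphocyte markers to 0.156 and 0.326 CPM.

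AHR is a transcription factor that is switched on by small molecules. Without a ligand it rests in the cytoplasm with the chaperone HSP90 and the co-chaperone PTGES3 (p23). With a ligand it moves to the nucleus, pairs with ARNT and binds the xenobiotic response element (XRE), whose core is GCGTG. CYP1A1 and CYP1B1, monooxygenases that oxidise aromatic compounds, are classical targets of the pair. AHRR and TIPARP are targets that restrain the receptor in turn. AHRR competes for ARNT, and TIPARP is an ADP-ribosyltransferase that modifies AHR. EREG encodes epiregulin, a ligand of the EGF receptor family that has also been described as an AHR target.

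The XRE core was looked up in the 250 bases before each RefSeq start, on both strands, in RefSeq promoter sequence (GRCh38.p14). RefSeq windows were matched for 6 of the 7 genes, all but CYP1B1. These RefSeq starts differ from the outer gene ends in GENCODE 29 that are given with each gene further on, and the matches of CYP1A1, AHRR and TIPARP lie inside those wider gene spans. The core occurred in windows of CYP1A1, AHRR, TIPARP and EREG, and did not occur in the windows of AHR and ARNT. The matches are shown because they are the letters that the AHR and ARNT pair is known to read, each on the strand of its gene from 5′ to 3′, with the core in capitals (GCGTG, or CACGC where the core lies on the other strand).
CYP1A1, chr15:74725571-74725595, minus strand: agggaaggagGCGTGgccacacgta
AHRR, chr5:321674-321698, plus strand: cgggcggctcGCGTGccggggtggg
AHRR, chr5:322360-322377, plus strand: ggcGCGTGacaggcaggg
AHRR, chr5:322558-322582, plus strand: agaagggtggGCGTGtgcgcgcgtt
TIPARP, chr3:156674372-156674396, plus strand: cgagaaaggaCACGCcccctcgcgg
TIPARP, chr3:156674438-156674462, plus strand: aacgaacgcgCACGCgcgcgcaggg
EREG, chr4:74364895-74364910, plus strand: cCACGCtccccacctc

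The CYP1A1 match lay 57 bases before its RefSeq start. Of the AHRR matches, 1 lay 30 bases before a RefSeq start and was the only one of the 7 that also carried the longer form TNGCGTG, which contains the core. The TIPARP matches lay 208 and 142 bases before a RefSeq start, and the EREG match 249 bases, at the outer edge of the window. The core is short and frequent. It was found in 5 of the 9 windows of these genes (55.6%), in 14 of the 34 windows of a wider list of AHR target genes (41.2%) and in 32.2% of all 35116 windows. The longer form was found in 1 of the 9 windows (11.1%), in 4 of the 34 (11.8%) and in 4.52% of all windows. Sequence farther from the starts was not searched, so the matches are not all the cores that a gene may have. A match of letters describes the sequence only, and binding of AHR was not measured.

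CYP1A1 (ENSG00000140465, chromosome 15, 74719542 to 74725610, minus strand, GRCh38) had 8 counts with DMSO and 234 with L1. In CPM after TMM scaling for library composition, the level was 0.250 in DMSO and 8.48 in L1. The ratio of L1 over DMSO was 33.9, or 5.08 on the log2 scale (95% counting interval 4.08 to 6.31). The intervals here are exact and cover counting error only. With 8 counts the DMSO level itself was loosely fixed, since the exact Poisson interval around 8 counts runs from 3.45 to 15.8. CYP1A1 therefore went from near the detection limit to a low but well-counted level. Only 23 of the 18123 genes that reached 10 counts in either library had a higher ratio, as did 15 of the 12365 genes with at least 100 counts. CYP1A1 was absent from the deposited FPKM lists, which hold only genes above 1 CPM in both libraries.

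No exon of CYP1A1 overlapped another gene, and 0.78% of its 31-base words occurred in another gene, CYP1A2. CYP1A2, the liver enzyme of the same family next to CYP1A1, had 2 counts with DMSO and 0 with L1. CYP1B1 (ENSG00000138061, chromosome 2, 38066973 to 38109902, minus strand), the other classical AHR target of the CYP1 family, had 0 counts in both libraries. A count of 0 allows up to 3 counts, which is 0.0937 CPM in DMSO and 0.109 CPM in L1. The antisense gene CYP1B1-AS1 was also at 0 in both libraries. Thus 1 of the 3 CYP1 genes had more than 2 counts in either library.

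AHR itself (ENSG00000106546, chromosome 7, 16916359 to 17346152, plus strand) had 768 counts with DMSO and 535 with L1. Its ratio was -0.31 on the log2 scale (-0.47 to -0.15), 1.24-fold lower in L1. AHR shares 34.9% of its 31-base words with other genes, mostly with AC019117.2, which had 8 counts with DMSO and 4 with L1. Summing both genes left the ratio at -0.31, though how reads in their shared exons were assigned is not known. ARNT (ENSG00000143437, chromosome 1, 150809705 to 150876768, minus strand), the partner of AHR, had 1028 counts with DMSO and 734 with L1. Its log2 ratio was -0.27 (-0.41 to -0.13), 1.21-fold lower in L1. Both genes of the DNA-binding pair were thus slightly lower in the L1 library than in the DMSO library, and 23.3% and 25.6% of all genes, respectively, had a lower ratio.

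AHRR (ENSG00000063438, chromosome 5, 304176 to 438291, plus strand) had 1661 counts with DMSO and 3214 with L1. The log2 ratio was 1.17 (1.08 to 1.25), 2.24-fold higher in L1, and 1026 of the 18123 genes had a higher ratio. AHRR lies in a crowded locus. The exons of AHRR share 244 bases with PDCD6, which encodes a calcium-binding protein, on the same strand. A readthrough gene, PDCD6-AHRR (ENSG00000288622, 271646 to 438285 in RefSeq), spans both. PDCD6-AHRR had 268 counts with DMSO and 5 with L1, a log2 ratio of -5.53 (-7.17 to -4.29), while PDCD6 had 1837 and 1591, a log2 ratio of 0.01 (-0.09 to 0.10).

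When AHRR was summed with the readthrough gene, the sums were 1929 with DMSO and 3219 with L1, and the log2 ratio was 0.95 (0.87 to 1.03). AHRR summed with PDCD6 gave 3498 and 4805 counts and a log2 ratio of 0.67 (0.61 to 0.73). All 3 genes summed gave 3766 and 4810 counts and 0.57 (0.50 to 0.63). Each of these sums was higher in L1, and each ratio lay below 2-fold. The counts of PDCD6 were nearly the same relative to library size in both conditions, so adding them brings the ratio nearer to 0. In raw counts, not scaled to library size, the readthrough gene was 263 lower in L1 and AHRR 1553 higher. The part of read assignment in the ratio of AHRR was not tested.

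**Figure D1:**
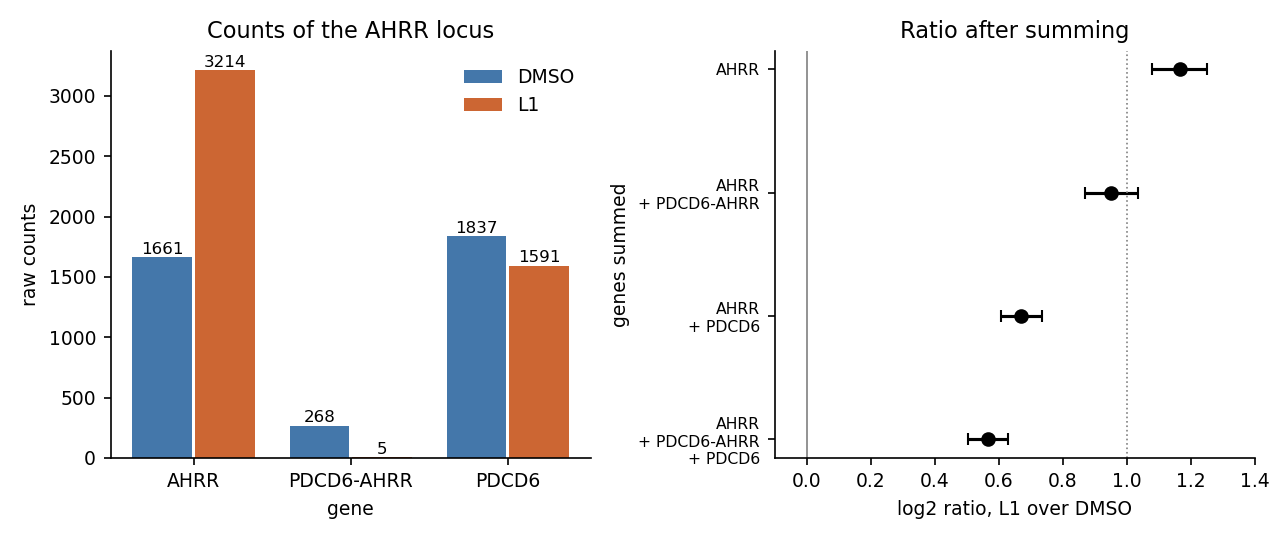
Left, raw counts of AHRR, the readthrough gene PDCD6-AHRR and PDCD6 in the DMSO and L1 libraries, 1 library each. Right, log2 ratio of L1 over DMSO for AHRR alone and summed with its neighbours, with 95% counting intervals and a dotted line at 2-fold, from 1.17 for AHRR alone to 0.57 for all 3 genes.

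TIPARP (ENSG00000163659, chromosome 3, 156673235 to 156706770, plus strand), the other restraining target, had 668 counts with DMSO and 712 with L1. Its log2 ratio was 0.31 (0.15 to 0.46), 1.24-fold higher in L1. This ratio was exceeded by 4429 of the 18123 genes. TIPARP-AS1, an antisense gene at its start that shares 37 exon bases, had 48 and 28 counts, few beside those of TIPARP.

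EREG (ENSG00000124882, chromosome 4, 74365143 to 74388751, plus strand) had 263 counts with DMSO and 549 with L1. The log2 ratio was 1.27 (1.06 to 1.49), 2.42-fold higher in L1, and 873 of the 18123 genes had a higher ratio. The exons of EREG overlapped no other gene. It was thus the gene with the second largest ratio of the 7, and its counting interval overlapped that of AHRR and lay apart from that of CYP1A1.

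**Figure D2:**
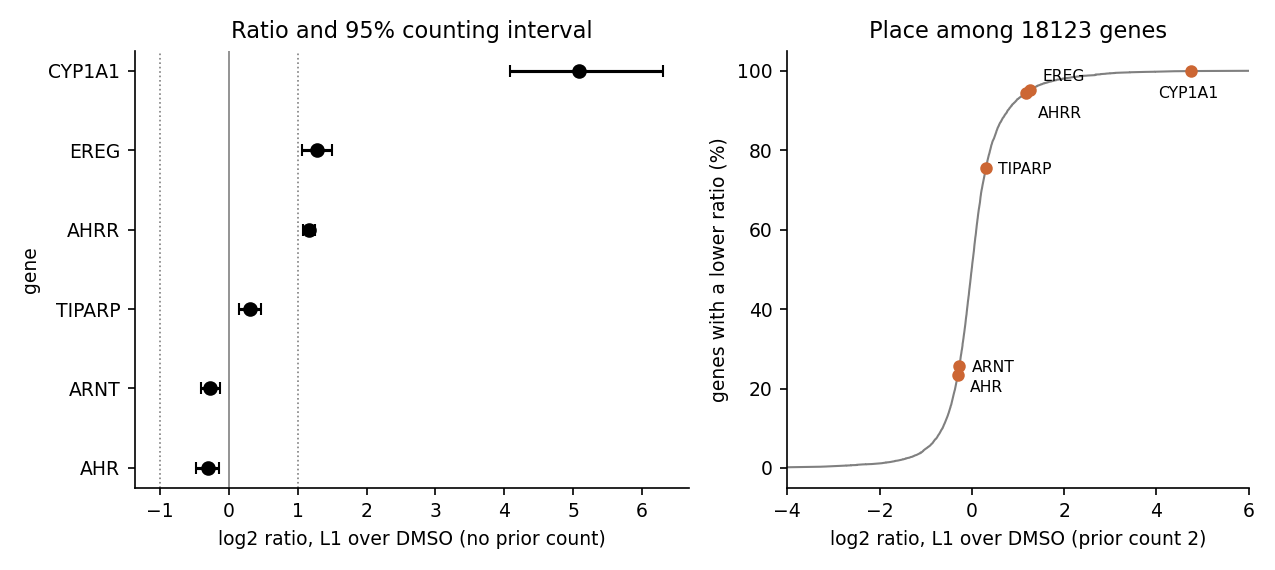
Left, log2 ratio of L1 over DMSO for the 6 genes with at least 10 counts in 1 library, with 95% counting intervals and dotted lines at 2-fold; CYP1B1 had no counts. Right, the same genes on the cumulative curve of 18123 genes, with the log2 ratio (prior count 2) on the x axis and the percentage of genes with a lower ratio on the y axis, where CYP1A1 stands at 99.9%.

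Levels were also compared between the genes per length, as TMM-scaled CPM per kilobase of exon. In DMSO, AHRR was the highest at 6.76 (6.44 to 7.09), followed by ARNT at 4.93 (4.63 to 5.24), TIPARP at 4.14 (3.83 to 4.46), AHR at 2.97 (2.76 to 3.19) and EREG at 1.44 (1.27 to 1.62). CYP1A1 stood far below them at 0.0728 (0.0314 to 0.143), and CYP1B1 lay under its limit of 0.0156. No neighbours in this order had overlapping counting intervals, but these intervals do not cover the choice of exon length.

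In L1 the order began with AHRR at 15.2 (14.6 to 15.7) and TIPARP at 5.11 (4.74 to 5.50), followed by ARNT at 4.08 (3.79 to 4.39) and EREG at 3.48 (3.19 to 3.78). CYP1A1 at 2.47 (2.16 to 2.80) and AHR at 2.40 (2.20 to 2.61) could not be told apart by their counting intervals. By these exon lengths CYP1A1 therefore reached about the level per length of its own receptor, and TIPARP and ARNT changed places. The exon length of AHR includes 2373 bases shared with AC019117.2, where the assignment of reads is not known. The limit for CYP1B1 in L1 was 0.0181. The deposited FPKM values gave the same order for the 5 genes they list. They went from 5.51 in DMSO to 12.4 in L1 for AHRR, from 5.02 to 4.15 for ARNT, from 4.38 to 5.41 for TIPARP, from 3.00 to 2.42 for AHR and from 1.45 to 3.50 for EREG. These FPKM values are the same counts divided by length and library size, so they are no second measurement.

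**Figure D3:**
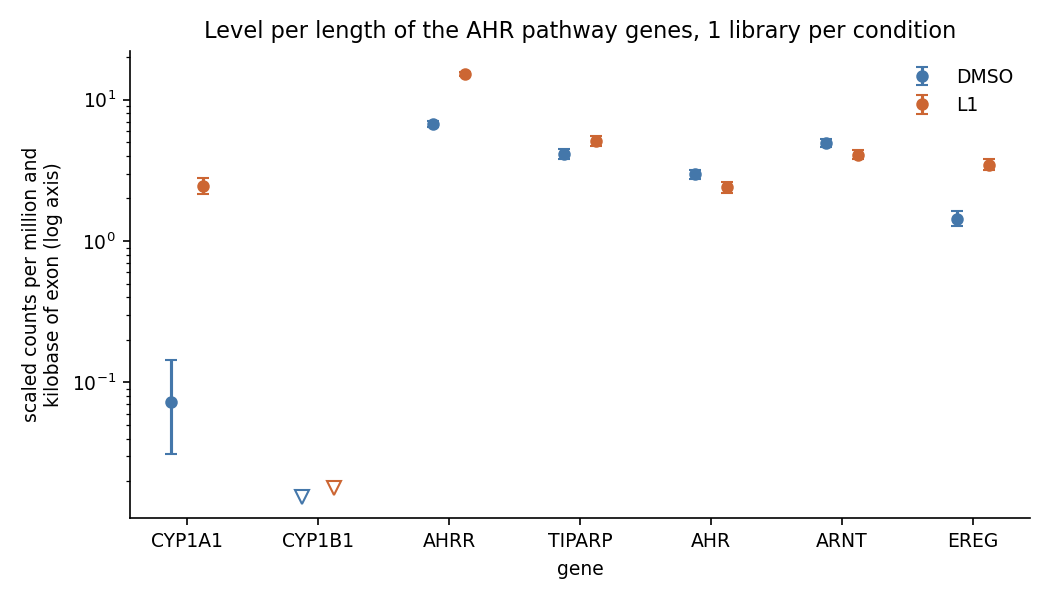
Level of each of the 7 genes in the DMSO and L1 libraries as TMM-scaled CPM per kilobase of exon, on a log axis, with exact 95% Poisson intervals (counting error only). Open triangles mark the upper limit that 0 counts allow for CYP1B1; CYP1A1 is the gene that moves most, from 0.0728 to 2.47.

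Across genes, ratios were computed with a prior count of 2 added to the scaled counts. Of the 7 genes, 6 had at least 10 counts in at least 1 library. CYP1A1, AHRR and EREG passed 2-fold upward in L1, and 0 of the 7 passed it downward. Over all 18123 genes, 7.12% lay 2-fold or more higher in L1, against 4.83% lower. Since CYP1A1 was selected on these counts, and it passed the minimum of 10 counts through the L1 library alone, nothing is read from the difference. With the prior count the log2 ratio of CYP1A1 was 4.75, and the median over the 6 genes was 0.73 beside -0.0040 over all genes.

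The other genes of the pathway were described with 7 lists from general knowledge. Among 26 AHR target genes, which include 5 of the 7 genes above, 15 had at least 10 counts and 11 did not, and 8 of the 11 were at 0 in both libraries. The latter include ALDH3A1, GSTA1 and UGT1A6, detoxifying enzymes, and IDO1 and IL6. Of the 15, 5 were at least 2-fold higher in L1 and 0 were lower, with a median log2 ratio of 0.50 and a range of -0.77 to 4.75. Besides CYP1A1, AHRR and EREG, these were ABCG2 and GSTA2. ABCG2, an efflux pump of the cell membrane, had 99 counts with DMSO and 209 with L1, a log2 ratio of 1.29 (0.94 to 1.65). GSTA2, a glutathione transferase named after its values were seen, had 3 and 11 counts. CYP1A1 and GSTA2 reached 10 counts through the L1 library alone, and CYP1A1, AHRR and EREG are among the chosen genes. The counts of this list and of those below stand beside the share over all 18123 genes. Of these, 7.12% lay 2-fold or more higher in L1 and 4.83% lower, and nothing is read from the difference.

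The other well-counted targets stayed within 2-fold. NQO1, a quinone reductase, had 142 counts with DMSO and 119 with L1, a log2 ratio of -0.04 (-0.41 to 0.32). NFE2L2, the transcription factor NRF2, had 1368 and 1687 counts, a log2 ratio of 0.52 (0.41 to 0.62). HES1, a transcriptional repressor within the Notch pathway, had the lowest ratio of the list, with 763 and 385 counts and -0.77 (-0.95 to -0.60). CYP2S1, another P450 listed as an AHR target, had 712 and 433 counts and -0.50 (-0.68 to -0.33). The target genes thus did not share 1 direction, with 10 of the 15 above 0, beside 8998 of all 18123 genes. The 10 include CYP1A1, AHRR, TIPARP and EREG of the chosen genes, and nothing is read from the difference.

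Among 15 genes of the AHR complex and its partners, all 15 had at least 10 counts. AHRR and NCOA3 were at least 2-fold higher in L1 and 0 were lower, with a median of 0.21. NCOA3, a coactivator that binds nuclear receptors and the AHR and ARNT pair, had 711 counts with DMSO and 1249 with L1, a log2 ratio of 1.03 (0.89 to 1.16). Its relatives NCOA1 and NCOA2 had ratios of -0.11 (-0.21 to -0.02) and -0.05 (-0.14 to 0.04). The HSP90 chaperones and PTGES3 were above 0, with HSP90AA1 at 0.61 (0.59 to 0.64), HSP90AB1 at 0.23 (0.22 to 0.24) and PTGES3 at 0.49 (0.46 to 0.53). ARNT2, the second partner of AHR, had 768 and 467 counts and -0.50 (-0.67 to -0.34).

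The bHLH-PAS family and its coactivators form the protein family of AHR, ARNT and AHRR. Of 22 genes, 16 had at least 10 counts, AHRR and NCOA3 were at least 2-fold higher, 0 were lower and the median was -0.070. HIF1A and EPAS1, the oxygen-regulated members that also pair with ARNT, had ratios of 0.29 (0.22 to 0.37) and -0.43 (-0.53 to -0.34). Of 17 genes of the PARP family, to which TIPARP belongs, 16 had at least 10 counts, 0 were outside 2-fold in either direction and the median was -0.057. The gene farthest from 0 was ZC3HAV1, an antiviral zinc finger protein, with 4235 counts with DMSO, 4830 with L1 and a ratio of 0.40 (0.34 to 0.46).

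The EGF receptor family was looked up as the setting of EREG. Of 13 ligands, receptors and regulators, 7 had at least 10 counts, EREG was the only gene outside 2-fold and the median was 0.15. Among the other ligands, HBEGF had 436 counts in both libraries, EGF had 341 in DMSO and 511 in L1, a ratio of 0.80 (0.60 to 1.00), and AREG had 40 and 27. The receptors to which epiregulin binds were near the detection limit. EGFR had 9 counts with DMSO and 3 with L1, and ERBB4 had 4 and 0. ERBB2, which joins them as a partner, had 211 and 202 counts.

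Tryptophan breakdown gives kynurenine, a natural ligand of AHR. The list held 18 enzymes of tryptophan use, with those of the kynurenine route beside TPH1 and DDC of serotonin synthesis, the amine oxidases MAOA and MAOB and the tRNA ligase WARS1. Of the 18, 11 had at least 10 counts, 1 was at least 2-fold higher, 1 was lower and the median was 0.087. TDO2, which opens the tryptophan ring, had 13 counts with DMSO and 43 with L1, a log2 ratio of 1.94 (1.02 to 2.96), while IDO1 and IDO2, which catalyse the same step, were at 0 in both libraries. HAAO, a later enzyme of the kynurenine route, had 50 and 20 counts and a ratio of -1.11 (-1.94 to -0.33).

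P450 enzymes need electrons and haem. The list held 14 genes of electron transfer and of haem handling, including HMOX1, HMOX2, BLVRA and BLVRB, which act in haem breakdown. Of the 14, 13 had at least 10 counts, CYB5B and HMOX1 were at least 2-fold higher, 0 were lower and the median was 0.11. CYB5B, an outer mitochondrial cytochrome b5, had 1300 counts with DMSO and 3238 with L1, a log2 ratio of 1.53 (1.44 to 1.62). HMOX1, the inducible haem oxygenase that breaks haem down, had 58 and 176 counts and a ratio of 1.81 (1.38 to 2.27). POR, the reductase that feeds electrons to CYP1A1, had 862 and 1020 counts and a ratio of 0.46 (0.32 to 0.59). ALAS1, which opens haem synthesis, was at -0.13 (-0.23 to -0.02).

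**Figure D4:**
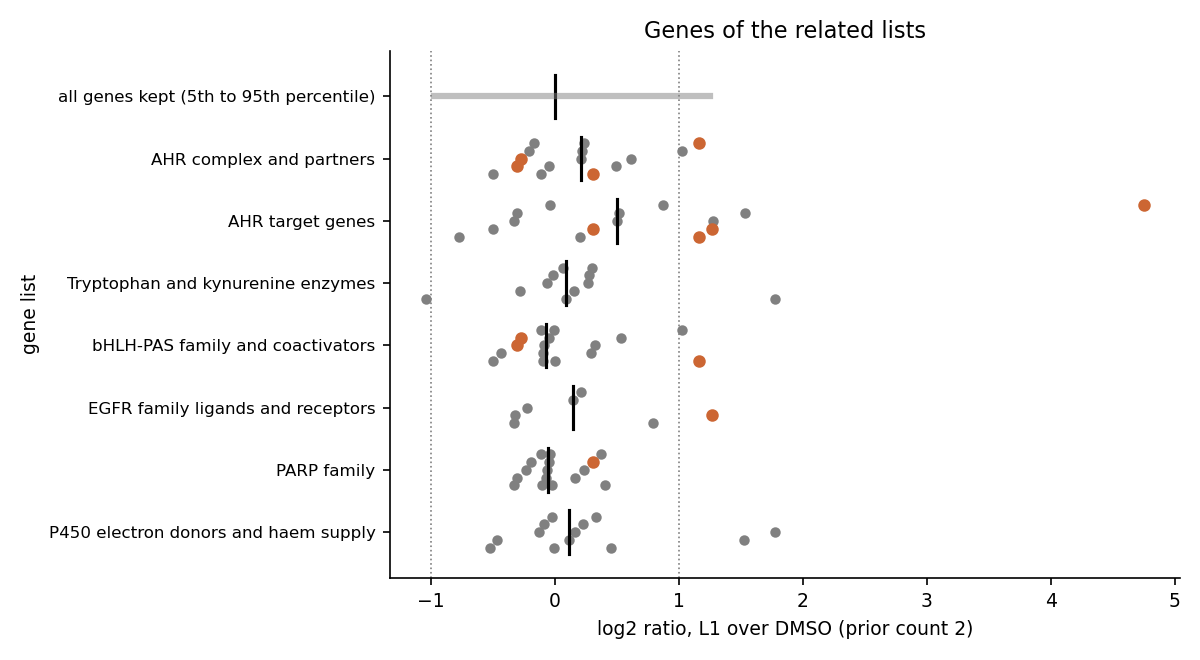
Log2 ratio of L1 over DMSO (prior count 2) of each gene with at least 10 counts in 1 library, by gene list, with orange points for those of the 7 chosen genes that a list holds (CYP1B1 is not plotted), black bars for list medians and dotted lines at 2-fold. The grey bar gives the range of 18123 genes from the 5th to the 95th percentile, and CYP1A1 at 4.75 is the point farthest beyond it.

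CYP1A1 was also set among the 56 protein-coding P450 genes. Of these, 25 were at 0 in both libraries and 16 had at least 10 counts in at least 1 library. In DMSO, CYP1A1 held 0.170% of the 4709 P450 counts (exact binomial interval 0.0734 to 0.334%), and in L1 it held 6.79% of 3446 (5.97 to 7.68%). Per length it ranked 16th among the P450 genes in DMSO and 5th in L1. These summed P450 counts are raw, from libraries of 32556872 counts in DMSO and 27135647 in L1, and were not higher in L1. The median log2 ratio of the 16 genes, which is scaled, was -0.043, or -0.061 without CYP1A1.

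Besides CYP1A1, 3 P450 genes passed 2-fold upward in L1 and 1 downward. The share of all 18123 genes was 7.12% at least 2-fold higher and 4.83% lower, and nothing is read from the difference. CYP51A1, the sterol demethylase of cholesterol synthesis, had 31 counts with DMSO and 446 with L1, a log2 ratio of 4.06 (3.53 to 4.63). The genes that overlap CYP51A1 directly on its strand had 0 counts in both libraries, and summing them left its ratio at 4.06. Among them, AC000120.2 shares 2844 exon bases with CYP51A1. How reads in shared exons were assigned is not known, so this sum cannot show whether the ratio rests on CYP51A1 alone. CYP51A1 is linked through overlapping exons to KRIT1 and LRRD1, and the whole linked locus had 1288 and 1945 counts and a ratio of 0.81 (0.71 to 0.91). Most of that sum was KRIT1, with 1250 and 1488 counts. CYP4V2, a fatty acid hydroxylase, had 1515 and 468 counts and a ratio of -1.48 (-1.63 to -1.33), or -1.30 (-1.44 to -1.15) when summed with the overlapping gene KLKB1. The others were CYP19A1, aromatase, with 2 and 18 counts, and CYP2F1 with 5 and 18, both named after their values were seen. Like CYP1A1, CYP19A1 and CYP2F1 reached the minimum count through the L1 library alone. The drug-metabolising genes CYP2E1 and CYP2D6 had 126 and 165 counts and 30 and 34 counts.

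**Figure D5:**
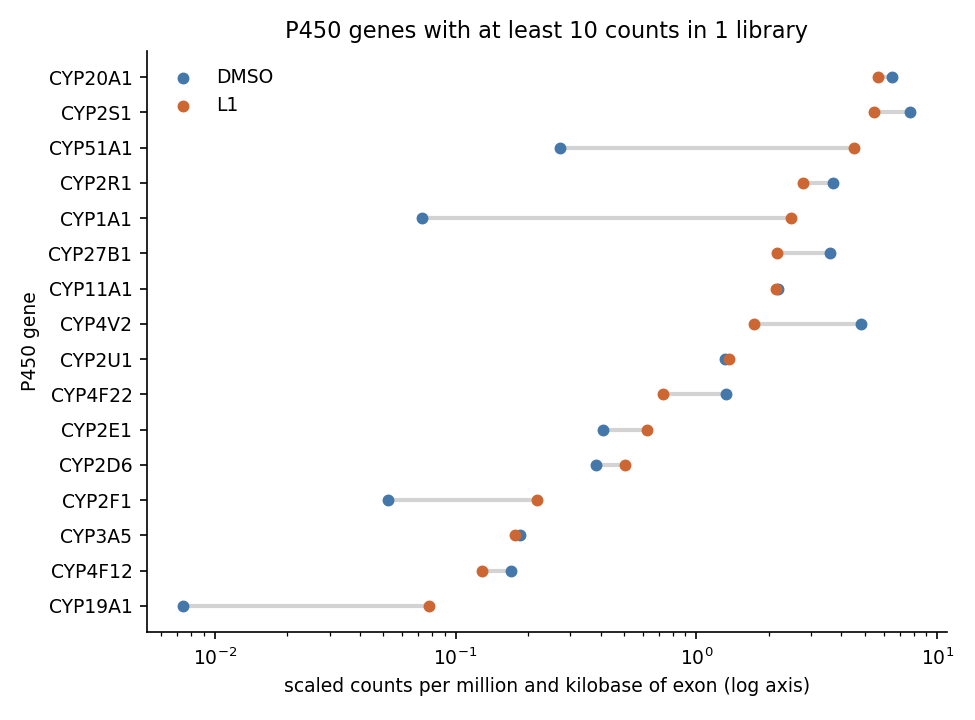
Level of the 16 P450 genes with at least 10 counts in 1 library, as TMM-scaled CPM per kilobase of exon on a log axis, in the DMSO (blue) and L1 (orange) libraries, 1 library each and without error bars. CYP1A1 moves from 0.0728 to 2.47 and CYP51A1 from 0.270 to 4.51, while CYP4V2 moves down from 4.83 to 1.73.

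The genes nearest to CYP1A1 in their ratio were taken from the 11840 genes with a gene symbol and at least 100 counts in 1 library, by the difference of log2 ratios (prior count 2) between these 2 libraries. MIR3142HG, the host gene of miR-146a and miR-3142, was nearest, with 4 counts with DMSO, 149 with L1 and a log2 ratio of 4.83. The readthrough genes PPAN-P2RY11 and MROH7-TTC4 followed, at 4.56 and 4.33, with 53 and 1120 counts and with 32 and 589 counts. When summed with the genes they overlap, their ratios were 0.04 (-0.04 to 0.12) and 0.06 (-0.02 to 0.14). ZNF778, a zinc finger gene, had 38 and 682 counts and 4.30, and NEU3, a sialidase of the plasma membrane, had 80 and 1260 counts and 4.15. With 2 libraries, likeness of ratio is a single number per gene and says nothing of shared control.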

How the data were processed

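Counts and FPKM values of HEL cells treated with L1 or DMSO were used, with 1 library per condition. Per the labels' processing notes and the methods, the authors trimmed paired-end reads with fastp (2.0), aligned them to hg38 with HISAT2 (2.1.0) and used StringTie. The deposited count table holds raw reads of 61806 Ensembl genes, not normalized. FPKM was deposited for 13924 of them, those above 1 CPM in both libraries. These equal the counts divided by gene length with a library ratio of 1.16, the ratio given by TMM. The counting program, its annotation and its use of strand are not given in the sources used here, so reads from overlapping or antisense genes may have been split between them.

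TMM factors were computed with edgeR 4.0.16 (R 4.3.3), and size factors with DESeq2 1.42.0 for an alternative. Other steps used Python 3.11.15, numpy 2.4.6, pandas 2.3.3 and scipy 1.17.1. Single-gene log2 ratios had no prior count and carry an exact 95% Clopper-Pearson interval, and levels carry an exact Poisson interval. These intervals cover counting error only and compare 2 libraries, not conditions. For ratios across genes, a prior count of 2 was added, 10 counts in either library were required (18123 genes), and the threshold was 2-fold. With 1 library per condition no test was possible. A count of 0 was given a limit of 3 counts. Positions, exons and shared 31-base words came from GENCODE 29, which holds 58254 of the gene identifiers. The scripts were tested on simulated data.

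All 7 genes were named. From each list, genes outside 2-fold with at least 20 counts in the higher library were named, or otherwise the gene farthest from 0 with at least 100. P450 genes outside 2-fold with at least 100 counts, the 5 genes nearest to CYP1A1 in ratio and genes overlapping these were named too, and a few further list genes were added for context after their values were seen. The genes and lists were chosen with earlier results of these data known. The alternatives were other scalings, prior counts, minimum counts and thresholds, the FPKM values and summed overlapping genes. The sums with PDCD6-AHRR and over linked loci were added after the data were seen. The result of 1 gene of the lists is not reported here.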

Additional observations from a re-analysis of the deposited data

How the results depend on the processing

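No paired analysis was possible because DMSO and L1 were sequenced as 1 library each. The direction of all 6 ratios was kept under every alternative that gave a value. The log2 ratio ranged from 4.75 to 5.13 for CYP1A1, from 0.57 to 1.22 for AHRR, from 0.25 to 0.35 for TIPARP, from -0.34 to -0.22 for AHR, from -0.30 to -0.22 for ARNT and from 0.88 to 1.32 for EREG. Values outside the counting interval came from FPKM with a pseudocount of 1 (1.04 for AHRR and 0.88 for EREG) and from the sums at the AHRR locus (0.95, 0.67 and 0.57). The number of the chosen genes at least 2-fold higher in L1 was 3 of the 6 tested under the other scalings. It was 2 of 5 with 10 counts required in both libraries, where CYP1A1 is left out by its 8 counts. With PDCD6-AHRR summed into AHRR it was 2 of 6, and with a 3-fold threshold 1 of 6. With FPKM it was 1 of 5 with a pseudocount of 1 and 2 of 5 with 0.1, as CYP1A1 is not listed there.

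Over all genes, the numbers at least 2-fold higher and lower were 1290 and 876 of 18123. They were 3544 and 1811 of 27464 with 1 count as the minimum, and 694 and 491 of 16475 with 10 counts in both libraries. With at least 100 counts they were 387 and 361 of 12365. Of the 18123 genes, 2506 and 2065 passed at 1.5-fold and 567 and 345 at 3-fold. Where the whole counting interval had to pass 2-fold, 547 and 350 of the 18123 did. FPKM gave 199 and 153 of 13924 with a pseudocount of 1 and 348 and 298 with 0.1. The number of genes tested differs between settings, and nothing is read from the difference to the chosen genes. Depth limits CYP1A1 in DMSO (8 counts) and CYP1B1 (0 counts) most, and culture-to-culture spread was not measured.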

Other observations

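The readthrough genes PPAN-P2RY11 (53 counts in DMSO, 1120 in L1) and MROH7-TTC4 (32 and 589), named for their nearness to CYP1A1 in ratio, share exons with single genes whose counts were PPAN 2474 and 1151, P2RY11 251 and 190, MROH7 23 and 10, and TTC4 2427 and 1631. These values are set side by side with no explanation, and readthrough genes as a class were not counted or tested.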
